A study of Rattus norvegicus with 4 samples.

Results

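The small noncoding RNA genes of rat embryonic stem cells (ESCs) were examined in poly(A)-selected RNA-seq libraries of Thop1-knockout cells and their parent line. Members were the nuclear rows of the count table annotated as snRNA, snoRNA, scaRNA, miRNA, misc_RNA or rRNA that held at least 20 raw counts summed over the 4 libraries. Of 34773 rows of the table, 5621 carried one of these 6 biotypes, 709 of those had at least 1 count, and 150 were members. They were 80 snoRNAs, 49 miRNAs, 10 snRNAs, 5 scaRNAs, 5 misc_RNA rows and 1 rRNA row. Because the members were chosen by their summed counts, their levels are given as a description. The rule did not compare the genotypes, whose difference was tested, but a sum over 3 subclones and 1 control admits rows that are high in the subclones more easily: 23 members had 0 counts in the control and 0 members had 0 in all subclones. Counts by direction over the members are therefore a description.

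The control, labelled WT, was 1 library of the Rex1-GFP reporter line DA-5-3 GFP. It was compared with 3 Thop1-KO GFP subclones (#1, #2 and #3), each 1 clone with 1 library, which were made from the same line with Cas9 and puromycin selection. The study's methods describe rat ESCs grown on feeder cells in 2i/LIF medium, so that the inhibitors, the cytokine and the reporter were common to both groups. The paper describes DA-5-3 as diploid, while the deposited design text speaks of haploid ESCs. Because the control had 1 library, the spread in every test came from the subclones, and a difference of that one culture or library from the others cannot be told apart from the genotype. Gene counts summed to between 15405499 and 17936544 per library. Thop1 itself had 1843, 1635 and 2680 counts in #1, #2 and #3 against 5500 in the control. All 9 ESC markers in the table were detected in the control. Their summed level, mostly Pou5f1, was 6010 to 7443 CPM (counts scaled to library size) in the subclones and 7472 in the control, but by the test used below Esrrb, Tfcp2l1 and Dppa4 were higher in the subclones and Utf1 was lower. Esrrb was at 286 to 330 CPM against 15.9, and Utf1 at 405 to 626 against 1566. Summed CPM of 7 fibroblast markers was 322 to 643 in the subclones and 199 in the control, with Dcn, Lum and Thy1 at 0 in every library, and that of 6 primitive endoderm markers was 4.23 to 6.44 and 2.76, with Gata4 in the other direction at 3, 0 and 3 counts against 17. The part of these markers in the differences below was not tested.

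Small noncoding RNAs work mostly inside ribonucleoprotein particles. Box C/D snoRNAs guide 2'-O-methylation and box H/ACA snoRNAs guide pseudouridylation of ribosomal RNA, scaRNAs guide the same changes on spliceosomal snRNAs in Cajal bodies, and miRNAs are cut from hairpins and repress mRNAs. Most mammalian snoRNAs and many miRNAs are released from introns or exons of longer transcripts, called host genes. The mature forms have no poly(A) tail, and miRNAs are far shorter than the fragments selected for these libraries. A count on such a row in poly(A) RNA-seq can therefore come from a longer transcript that crosses it, and the counts below are levels of reads over the row, not of the mature RNA. In bulk RNA, fewer cells of a type and less RNA per cell also cannot be told apart.

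The miRNA rows with the best-known role in ESCs were those of the Mir290 cluster, which encodes the main miRNA family of naive rodent pluripotent cells. Of 49 miRNA members, 14 matched the RefSeq miRNA table by symbol, and in each of these the row was as long as the RefSeq hairpin, so the counts were taken over precursors. The mature sequences of the cluster are shown in order from its 5' end, with the seed (bases 2 to 8), which pairs with target mRNAs, in capitals.
rno-miR-290: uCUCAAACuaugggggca
rno-miR-291a-5p: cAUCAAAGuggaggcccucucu
rno-miR-291a-3p: aAAGUGCUuccacuuugugugcc
rno-miR-292-5p: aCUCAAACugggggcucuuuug
rno-miR-292-3p: aAGUGCCGccagguuuugagugu
rno-miR-291b: aAAGUGCAuccauuuuguuagu
rno-miR-293-5p: aCUCAAACugugugacacuuu
rno-miR-293-3p: aGUGCCGCaaaguuugcagugu
rno-miR-294: cUCAAAAUggaggcccuaucu
rno-miR-295-5p: aCUCAAAUguggggcacacuucu
rno-miR-295-3p: aAGUGCUAcuacuuuugggugu
The seed CUCAAAC was shared by miR-290, miR-292-5p and miR-293-5p. Other than miR-295-3p, these sequences lie on the minus strand of chromosome 1 in the RefSeq build GRCr8, from chr1:74878019-74878041 for miR-295-5p to chr1:74880106-74880123 for miR-290. The hairpin of Mir295-1 is identical to that of Mir295-2 elsewhere on the chromosome, so reads on Mir295-1 could belong to either copy, and miR-295-3p is printed from the RefSeq entry of Mir295-2. The imprinted H19 transcript is the precursor of Mir675, the other named miRNA with many counts, and its mature forms are shown for comparison of their seeds with those above.
rno-miR-675-5p: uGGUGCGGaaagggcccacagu
rno-miR-675-3p: uGUAUGCCcuaaccgcucagu
No seed was shared between Mir675 and the Mir290 cluster.

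The members held 7842, 7140 and 7550 counts in #1, #2 and #3 against 10145 in DA-5-3 GFP. This was 0.0435% ± 0.00154 (SD, n = 3) of gene counts in the subclones against 0.0659% in the control (95% Wilson interval 0.0646 to 0.0671%, counting error only). The share was 1.51-fold higher in the control, above all 3 subclones, but the two-sided exact permutation test gave p = 0.25, the smallest that 1 library against 3 allows. The biotypes did not move alike. miRNA rows took 0.0464% of counts in the control and 0.0273% ± 0.00282 (SD, n = 3) in the subclones. snoRNA rows took 0.0137% and 0.0141% ± 0.00178 (SD, n = 3), so the control lay within the range of the subclones. The rRNA row took 0.00430% and 0.000561% ± 0.000113 (SD, n = 3), 7.67-fold more in the control. scaRNA rows had 10 counts in the control and 63, 46 and 59 in the subclones. The excess in the control depended on overlapping rows: over the 81 members that overlap no other row of the table, the share was 0.0219% in the control and 0.0152, 0.0210 and 0.0177% in the subclones.

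**Figure D1:**
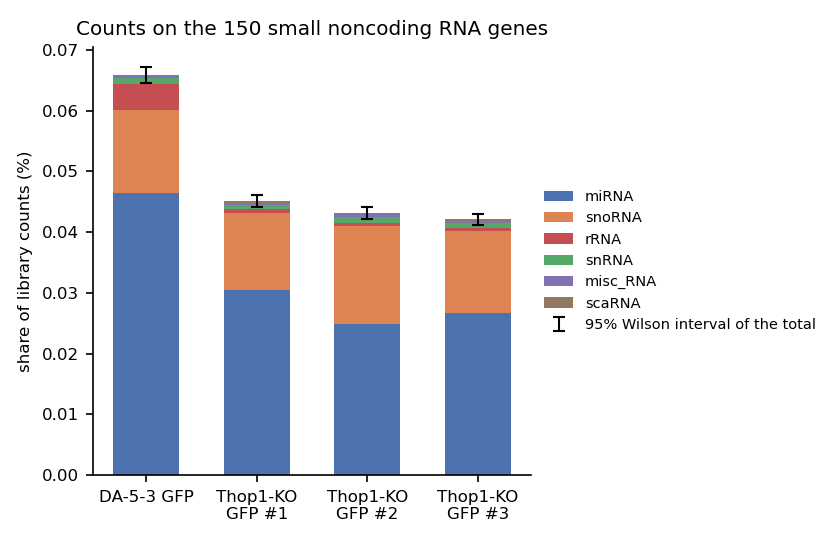
Share of each library's gene counts (%, vertical axis) on the 150 members, stacked by biotype, for DA-5-3 GFP and the 3 Thop1-KO GFP subclones. Error bars are 95% Wilson intervals of the total, which was 0.0659% in the control and 0.0421 to 0.0451% in the subclones.

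Counts were concentrated in few rows. AC128792.1, an unnamed miRNA row (chromosome 1, 101448331), held the most, with 2724, 1639 and 2030 counts in #1, #2 and #3 against 2585 in the control. It overlaps the end of LOC100360087, whose counts were 95206 to 129525 in the subclones and 192618 in the control, so how many of its reads belong to either row cannot be told. AABR07063425.2 and Mir675 followed, with 2796 and 1818 counts over the 4 libraries. The same 3 miRNA rows led per length, at a mean of 1261, 779 and 307 FPKM. The median member had 52.5 counts in all, and many rows were close to the selection limit. LOC252890, AC130391.5, Gm23202 and single copies of 7SK and U4 entered with 20 counts, while AC111734.1, Snord1b, Snord1c and AABR07002875.1 stayed out with 19. The control had 0 counts in 23 members, against 4, 3 and 3 members in #1, #2 and #3.

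The genotypes were tested by edgeR's quasi-likelihood method over all 15028 rows that passed its filter on low counts, with Benjamini-Hochberg adjustment, and a row was called at an adjusted p under 0.05. Of the 150 members, 146 were tested. Among these, 11 were called higher and 11 lower in Thop1-KO GFP, that is 15.1% of members, where 13.8% of all tested rows were called. By direction, 7.53% of tested members were higher against 8.62% of all rows, and the same 7.53% were lower against 5.17%. In this fit the members' share of calls was near that of the whole table. It was near with DESeq2's Wald test too, at 19.8% of tested members against 20.6% of all rows, but not in every fit. With limma on log2(FPKM + 1), 39.0% of tested members were called against 12.7% of all rows, and with a pseudocount of 0.1, 37.0% against 12.4%. Among rows with at least 100 counts, edgeR called 30.6% of the 49 members and 16.4% of all tested rows. The filter was passed in both groups by 70 members, only through the subclones by 58 and only through the control by 18. Of the 11 members called higher, 8 had passed only through the subclones, where they are high. The median log2 fold change was 0.23 over tested members and 0.06 over all tested rows, and it turned to -0.29 over the 48 members with at least 10 counts in every library. The control exceeded every subclone in 41.8% of tested members and fell short of every one in 45.2%, against 37.6 and 38.1% of all tested rows.

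The number of calls, and the size of some differences, depended on the subclones entered. Without #3, edgeR's test called 0 members higher (25 at an unadjusted p under 0.05) and 5 lower, and without #2 it called 24 and 23. The whole table moved likewise, from 2072 calls to 457 and 5572. All 17 members whose call was lost without #3 kept their direction, with log2 fold changes that moved by a median of 0.09 and at most 0.39. SNORA62, for example, stayed at 1.99 and Mir675 went from 2.08 to 2.12, while edgeR's adjusted p of the 17 lay between 0.0580 and 0.160. AABR07063425.2, 5_8S_rRNA, AABR07015042.1, AC113837.6 and SNORD81 were the 5 members called lower in every setting in which they were tested. Other rows moved more than the 17. The log2 fold change of SNORD81 went from -4.75 to -5.85 without #3, and that of AABR07066800.1, not called, from 1.49 to 0.98 without #2.

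By biotype, 7 of 80 tested snoRNAs were called higher (8.75%) and 4 lower (5.0%), near the 8.62 and 5.17% of all tested rows. Of 48 tested miRNAs, 4 were higher (8.33%) and 6 lower (12.5%). The single rRNA row was lower. None of 9 snRNAs, 4 scaRNAs and 4 misc_RNA rows was called by edgeR, with 2, 2 and 1 of them at an unadjusted p under 0.05. DESeq2 also called none of these 3 biotypes, and limma on log2(FPKM + 1) called 1 snRNA, 2 scaRNAs and 0 misc_RNA rows. These small groups had few counts, so their fold changes could not be estimated closely.

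**Figure D2:**
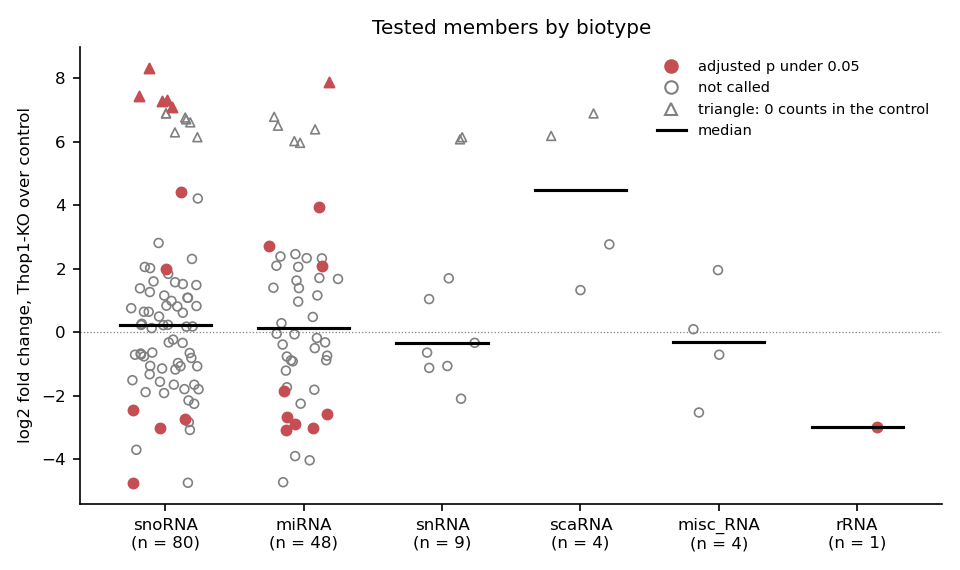
Log2 fold change of Thop1-KO GFP over the control (vertical axis) for the 146 tested members by biotype, with 1 point per row and a bar at the median. Filled points were called, and triangles had 0 counts in the control, so their fitted values depend on the prior count and only show that they were higher in the subclones.

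**Figure D3:**
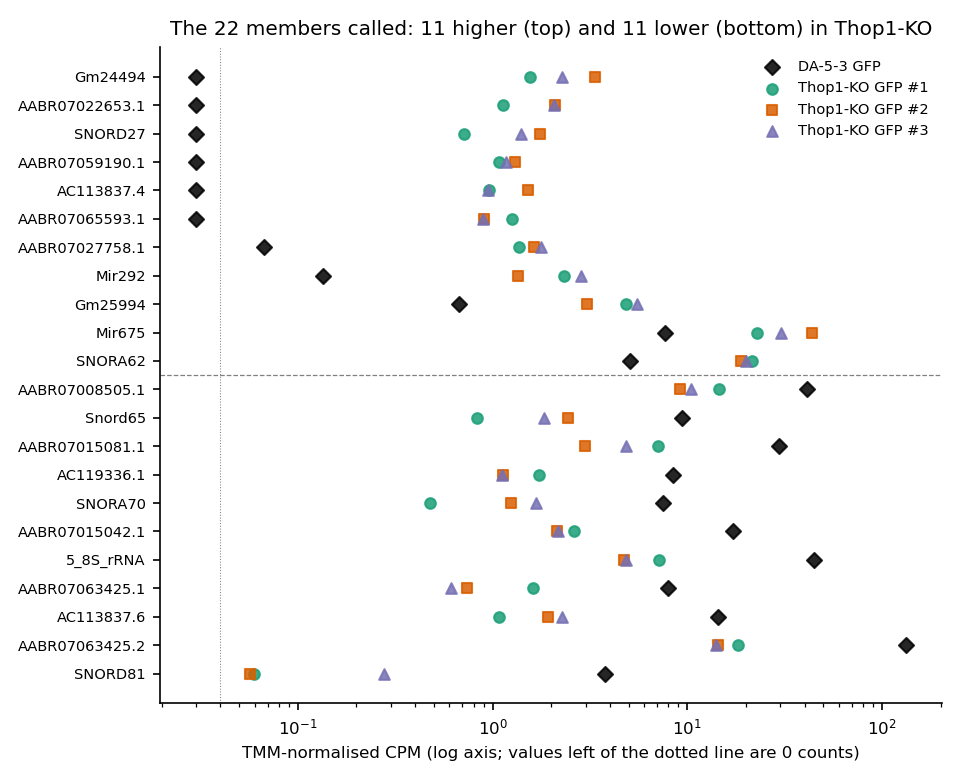
TMM-normalised CPM (horizontal log axis) of the 22 called members in each of the 4 libraries, with 0 counts drawn left of the dotted line. Values ran up to 133 CPM, in AABR07063425.2 of the control, and in each of the 22 rows the control was higher or lower than every subclone.

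Among the miRNA rows, Mir675 was higher in the subclones, with 384, 776 and 544 counts in #1, #2 and #3 against 114 in the control. Its log2 fold change was 2.08 (SE 0.47, edgeR's adjusted p = 0.0360). The nearest row, Mrpl23, lay 36668 bases away and did not pass the test (log2 fold change 0.02). Igf2, the growth factor gene imprinted together with H19 in mammals and named here after its values were seen, had 801, 1838 and 1153 counts against 213 (log2 fold change 2.33, SE 0.51, edgeR's adjusted p = 0.0328). In both rows #2 was the highest and #1 the lowest subclone, and the groups did not overlap.

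Mir292 was the member of the Mir290 cluster that passed the test. It had 39, 24 and 51 counts over the subclones against 2 in the control, a ratio of 16.2 with a 95% counting interval of 4.37 to 135 (edgeR's adjusted p = 0.0444). The other 6 rows were not called. Mir290, at the 5' end, had 34, 14 and 45 counts against 10, and Mir291a had 55, 39 and 43 against 7. Mir291b had 67, 85 and 78 against 21. For these rows the control was below every subclone, as in 38.1% of all tested rows. Mir293 had 65, 68 and 104 counts against 55, and Mir294 had 69, 73 and 85 against 73. Mir295-1, at the 3' end, had 104, 102 and 140 against 181, with the control above every subclone (log2 fold change -0.89, SE 0.36, edgeR's adjusted p = 0.140). That order held for 37.6% of all tested rows. The order of the control and the subclones was thus reversed between the ends of a stretch of 2163 bases.

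Gm25994, a row within the RNA helicase gene Ddx5, which helps to process primary miRNAs, was the other miRNA row called higher with counts in the control. It had 81, 54 and 99 counts over the subclones against 10 in the control (log2 fold change 2.72, SE 0.65, edgeR's adjusted p = 0.0407). Mir3064, in the same host, had 35, 22 and 15 counts against 4, which did not pass the test (edgeR's adjusted p = 0.154). Ddx5 itself had 4324, 6171 and 5413 counts against 4943, with the control between the subclones. AABR07022653.1, on an unplaced scaffold, had 19, 37 and 37 counts against 0, at least 8.73-fold higher against a floor of 3 counts in the control (edgeR's adjusted p = 0.0278).

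All 6 miRNA rows called lower carried clone-based names and no RefSeq match. AABR07063425.2 (chromosome 6, 30640660 to 30640716) had 306, 255 and 253 counts over the subclones against 1982 in the control (log2 fold change -3.10, SE 0.26, edgeR's adjusted p = 0.00678). It was 57 bases long, as were AABR07063425.1, with 27, 13 and 11 counts against 118, and AABR07015081.1, with 119, 53 and 87 against 440. AABR07063462.1, the other tested row of this length, had 2, 0 and 4 counts against 27 and did not pass the test (edgeR's adjusted p = 0.0733). These were the 4 miRNA rows of 57 bases with at least 20 counts, and in all of them the control was above every subclone. That held for 37.6% of all tested rows, and all of the 4 but AABR07063462.1 were already among the rows called lower. Reads could be split between such rows if they are copies of one sequence, which was not checked here because no genome was used. AABR07063425.2 lies wholly inside a row on the other strand that is not itself a small noncoding RNA. AABR07015081.1 lies opposite AABR07015081.2, which was also lower, with 242 to 305 counts against 1586 (log2 fold change -2.76, SE 0.26, edgeR's adjusted p = 0.00678). The source of reads on such opposite rows is uncertain, since the strand handling of the counting is not given in the sources used here. AABR07015042.1 had 44, 38 and 39 counts against 256, AC119336.1 had 29, 20 and 20 against 125, and AABR07008505.1, inside the gene Pdzd2, had 245, 163 and 188 against 612. Pdzd2 had only 0 to 10 counts in any library, fewer than the row inside it.

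The rRNA row, 5_8S_rRNA on chromosome 1 (11906441 to 11906593), stood for a component of the large ribosomal subunit that is made from the RNA polymerase I precursor and has no poly(A) tail. It had 120, 84 and 87 counts over the subclones against 663 in the control (log2 fold change -2.998, SE 0.34, edgeR's adjusted p = 0.00705). The next row, which the authors had added to the annotated genes and which is given here after its values were seen, lies 1118 bases away on the other strand and had 24821, 27699 and 21654 counts against 118503 (log2 fold change -2.49, SE 0.20, edgeR's adjusted p = 0.00678). In both rows the subclones lay close together and far below the control.

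The snoRNA rows called higher included SNORA62, an H/ACA snoRNA in the ribosomal protein gene Rpsa. It had 359, 333 and 360 counts over the subclones against 75 in the control (log2 fold change 1.99, SE 0.36, edgeR's adjusted p = 0.0203). Rpsa had 81221, 62625 and 83402 counts against 105435, with the control above every subclone (log2 fold change -0.71, edgeR's adjusted p = 0.0758). The row and its host thus lay on opposite sides of the control. Gm24494, in the prenyltransferase subunit gene Rabggtb, had 26, 59 and 41 counts against 0, at least 11.8-fold higher, while Rabggtb had 1367, 1412 and 1860 against 1199. The other C/D and H/ACA rows called higher had few counts. SNORD27 had 12, 31 and 25 counts, AC113837.4 had 16, 27 and 17, AABR07059190.1 had 18, 23 and 21, and AABR07065593.1, in the translation factor gene Eif5, had 21, 16 and 16, each against 0 in the control. Their lower bounds ran from 5.03-fold for AABR07065593.1 to 6.37-fold for SNORD27. AABR07027758.1 had 23, 29 and 32 counts against 1, a ratio of 23.8 with a 95% counting interval of 4.16 to 952.

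Of the snoRNA rows called lower, SNORD81 had 1, 1 and 5 counts over the subclones against 56 in the control (log2 fold change -4.75, SE 0.88, edgeR's adjusted p = 0.0217). AC113837.6, its neighbour, had 18, 34 and 41 counts against 214 (log2 fold change -3.03, SE 0.47, edgeR's adjusted p = 0.0139). Snord65 had 14, 43 and 33 against 139 (log2 fold change -2.45, SE 0.57, edgeR's adjusted p = 0.0377). SNORA70, in the ribosomal protein gene Rpl10, had 8, 22 and 30 counts against 112 (log2 fold change -2.72, SE 0.64, edgeR's adjusted p = 0.0380). Rpl10 had 33470, 38104 and 39355 counts against 50566 and was also called lower (log2 fold change -0.69, edgeR's adjusted p = 0.0498). The most abundant uncalled snoRNA rows were AABR07040332.1, with 358, 230 and 263 counts against 137, and SNORD29, with 99, 194 and 131 against 191. Normalised to library size, SNORD29 was at 5.90, 10.97 and 7.29 CPM against 12.9, so the control was just above the subclones.

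In the larger runs of neighbouring rows, the log2 fold change was lower toward the 3' end. There were 6 runs of at least 3 members on one strand with gaps of at most 5000 bases, and 3 of them held 7 or 8 members. In the run of 8 on the plus strand of chromosome 13 (78852741 to 78855688), which includes Snord78, SNORD79 and SNORD81, snoRNAs carried by Gas5 in other mammals, the first 2 rows had 0 counts in the control. Gm26224 had 14, 15 and 17 counts in the subclones, AC113837.4 is given above, and SNORD24 had 37, 65 and 60 against 15. In the middle, Gm23212 had 46, 73 and 59 counts against 63, and Snord78 had 59, 83 and 91 against 31. SNORD79 had 7, 4 and 13 counts against 12, and the last 2 rows, AC113837.6 and SNORD81, were those called lower. The first 4 rows took 57.1, 59.6 and 50.5% of the run's counts in #1, #2 and #3 and 19.9% in the control (95% Wilson interval 16.3 to 24.2%).

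The run of 7 on the plus strand of chromosome 1 (224921637 to 224923957) holds the C/D snoRNAs that Snhg1 carries in other mammals. Its first 3 rows, SNORD25, SNORD27 and SNORD28, took 25.4, 22.5 and 24.9% of the run's counts in the subclones against 2.97% in the control (95% Wilson interval 1.67 to 5.24%). SNORD28 had 46, 30 and 50 counts against 5, which missed the threshold (edgeR's adjusted p = 0.0580). At the 3' end, SNORD22 had 70, 89 and 113 counts against 120. In the Mir290 cluster, the first 3 rows took 29.6, 19.01 and 25.5% of counts in the subclones against 5.44% in the control (95% Wilson interval 3.51 to 8.35%). In each of these 3 runs the control was outside the range of the subclones, and exact permutation of 1 library against 3 allows no p below 0.25. Spearman's rho between the order from the 5' end and the log2 fold change was -0.95 in the run of 8, -0.71 in the run of 7 and -0.75 in the Mir290 cluster, where the rows of a run share a primary transcript or locus and the same 4 libraries.

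**Figure D4:**
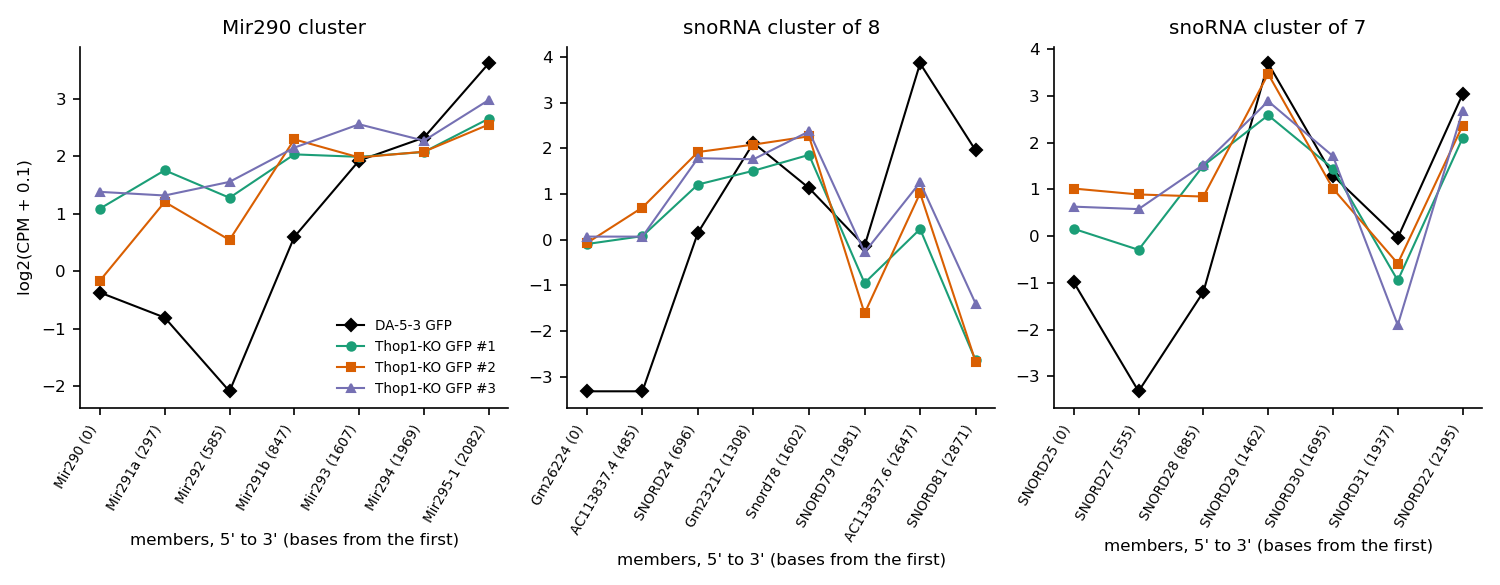
Level of each row on a log2(CPM + 0.1) scale (vertical axis) in the order of the 3 largest runs of members from the 5' end (horizontal axis, bases from the first row in brackets), with 1 line per library. The control line starts below the subclones and ends above them in all 3 runs, and 0 counts sit at the bottom of the axis.

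The 3 shorter runs gave mixed results. In the run on chromosome 10, Snord49b had 15, 55 and 32 counts against 7, Snord49a had 56, 100 and 58 against 43, and Snord65, the last row, was the one called lower. In the run opposite Znfx1 on chromosome 3, the first row took 15.9, 25.3 and 17.9% of counts in the subclones against 20.2% in the control, so the control was within their range. In Taf1d, all 3 rows had negative log2 fold changes, from -1.33 to -3.71, and none was called.

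Overlap with other genes was common. Of the 150 members, 69 overlapped another row, and 64 lay wholly inside one that is not itself a small noncoding RNA, 50 on the same strand and 14 on the other. The 49 same-strand members with a tested host lay in 40 hosts, among them genes of ribosomal proteins, translation factors and RNA helicases. Of the 40 hosts, 11 (27.5%) were called by edgeR's test, each of them lower. Of the 49 members, 4 were called higher and 1 lower, 8.16 and 2.04%, beside 8.62 and 5.17% of all tested rows. SNORA70 in Rpl10 was the one pair called in both. The median log2 fold change was 0.64 over these members and -0.40 over their hosts. The selection admitted members that are high in the subclones more easily, so the members' median is a description. Only 40 of the 49 had counts in the control, and over all tested members with counts in the control the median was -0.32. Spearman's rho between member and host was 0.41 over the 49 pairs, as a description of points that share libraries and, in part, hosts and reads.

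Within hosts, too, the log2 fold change varied with position. The table gives gene spans without exons, so a position is the distance of the row's midpoint from the host's 5' end as a percentage of the span. The 10 members in the 5' part of the host (under 33.3%) had a median log2 fold change of 1.69 (1.34 with rows at 0 in the control set to their lower bound), and 1 of them was negative. The 15 in the middle had a median of 0.84, with 2 negative. The 24 in the 3' part (from 66.7%) had a median of -1.27, with 16 negative, and the control was above every subclone in 15. Over all tested rows, 7226 of 15028 were negative, and the control was above every subclone in 37.6%. It was below every subclone in 7 of the 10, 10 of the 15 and 7 of the 24 members, against 38.1% of all tested rows. Rows with 0 counts in the control numbered 4 in the 5' part, 4 in the middle and 1 in the 3' part. Such rows passed the filter on low counts only through the subclones, where they are high. The medians and counts by position are therefore a description. Spearman's rho over the 49 was -0.51, and -0.34 over the 40 with counts in the control. Pairs in a single host gave examples: in Rps12, Gm23130 at 34.4% had 10, 11 and 9 counts against 5, and Snora33 at 84.1% had 4, 9 and 23 against 32. In Eef1b2, AC141169.4 at 42.3% had 6, 11 and 21 counts against 10, and AC141169.3 at 78.2% had 3, 7 and 5 against 16. Rack1 and Ddx5 did not show it, since SNORD96, Snord95, Gm25994 and Mir3064 were all higher than the control in every subclone. None of these rows but Gm25994 was called.

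**Figure D5:**
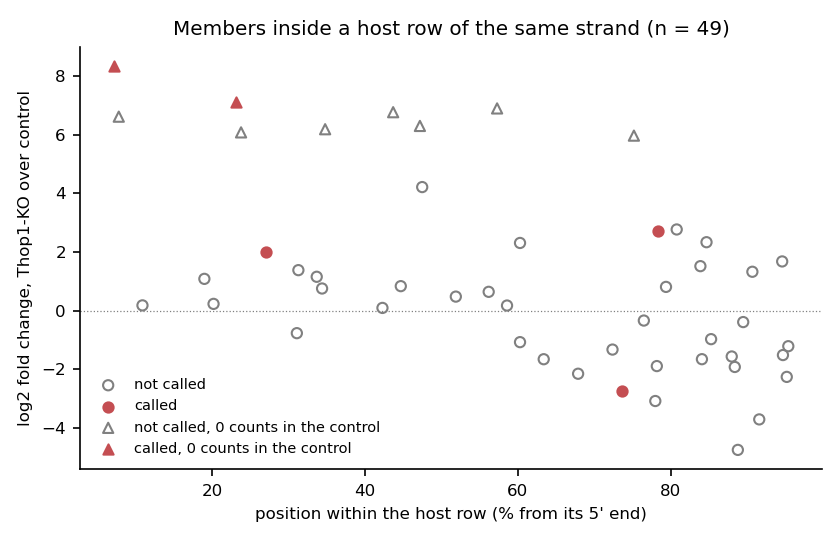
Log2 fold change of Thop1-KO GFP over the control (vertical axis) against the position within a same-strand host (horizontal axis, percent from its 5' end) for 49 members. Filled points were called, triangles had 0 counts in the control, and points below 0 lie mostly in the 3' part of the host, where 16 of 24 were negative. Over all tested rows, 7226 of 15028 were negative.

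A related measure moved with the genotype across the whole table. Over tested rows that were not members, the median log2 fold change was -0.61 in the 903 rows under 500 bases, -0.08 in the 4323 rows of 1000 to under 2000 bases and 0.39 in the 2662 rows of at least 4000 bases. Among the shortest rows 3.88% were called higher and 9.97% lower, and among the longest 11.4% and 1.80%. The part of RNA integrity or read coverage along transcripts in the differences of the members was not tested, and with 1 control library it cannot be told apart from the genotype.

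The spliceosomal and other RNA polymerase II and III products had low counts. U7, which guides 3' end cleavage of histone mRNAs, was the most abundant snRNA row, with 51, 61 and 48 counts over the subclones against 71 in the control (log2 fold change -0.64, SE 0.44, edgeR's adjusted p = 0.336). A U2 row on chromosome 10 had 16, 25 and 22 counts against 39, a U5 row 4, 26 and 7 against 5, and a U1 row 6, 11 and 11 against 10. Another U2 row went the other way, with a log2 fold change of 1.70 (edgeR's adjusted p = 0.513) against -1.13 for the row on chromosome 10. The 4 U6 rows, which carry the catalytic RNA of the spliceosome, had 0 to 16 counts per library and went both ways. Terc, the template RNA of telomerase, had 9, 15 and 6 counts against 14. Rows annotated as 7SK, the RNA that holds P-TEFb inactive, differed in direction. A row of 57 bases on chromosome 5 had 32, 21 and 16 counts against 5, and one of 99 bases on the X chromosome had 4, 11 and 3 against 30. Neither passed the test. Both were short beside the other 7SK member, of 321 bases, which had 6, 7 and 5 counts against 2 and was not tested. Since rows of U1, U2, U6 and 7SK can hold near-identical sequence, reads could be split between them, and their rows are uncertain.

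Of the 5 scaRNA rows, 4 lay in hosts. In each of these 4 the control was below every subclone, as in 38.1% of all tested rows. These 4 passed the filter on low counts only through the subclones, where they are high, so their direction and median are a description. Scarna6 had 23, 9 and 18 counts against 2, a ratio of 7.09 with a 95% counting interval of 1.86 to 60.1. Gm25395, in the same host Atg16l1, had 14, 15 and 17 against 0, at least 4.34-fold higher (edgeR's adjusted p = 0.0522), and Gm24644 had 8, 10 and 10 against 0, at least 2.64-fold higher. Gm25492 had 11, 8 and 8 counts against 3. Scarna2, which overlaps no row, had 7, 4 and 6 counts against 5 and was not tested. The median log2 fold change over the 4 tested rows was 4.48, or 1.76 with rows at 0 set to their bound.

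The proteins that make, bind or trim these RNAs were read from fixed lists, against 8.62% of all tested rows called higher and 5.17% lower. Of 25 tested genes of miRNA processing and loading, 4 were called higher and 0 lower. Ago1, which loads miRNAs, had 841, 1601 and 1180 counts against 121 (log2 fold change 3.08, SE 0.45, edgeR's adjusted p = 0.0123). Adar, which edits double-stranded RNA, had 1010, 1091 and 1076 against 213, and Ddx17 and Tnrc6c were the other 2. The nuclease genes Drosha, with 417, 546 and 536 counts against 585, and Dicer1, with 344, 450 and 458 against 656, did not pass the test. For Dicer1 the control was above every subclone (log2 fold change -0.89, edgeR's adjusted p = 0.0790).

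Of 13 genes of the box C/D particle, 1 was lower: Nop58, a core protein, had 420, 745 and 842 counts against 1935 (log2 fold change -1.78, SE 0.35, edgeR's adjusted p = 0.0258). Fbl, the methyltransferase of the same particle, had 8660, 8891 and 9044 against 7481 and a log2 fold change of 0.01. Of 12 genes of the H/ACA particle and telomerase, 2 were higher and 1 lower. Tert, the telomerase reverse transcriptase, had 1093, 496 and 1024 counts against 77 (log2 fold change 3.27, SE 0.59, edgeR's adjusted p = 0.0203), and Coil, the Cajal body scaffold, had 944, 625 and 846 against 192. Dkc1, the pseudouridine synthase, had 9807, 9011 and 10022 against 14005 (log2 fold change -0.77, SE 0.20, edgeR's adjusted p = 0.0490). Among 39 genes of snRNA transcription, 3' processing and Sm assembly, 5 were higher, 4 of them Integrator subunits (Ints2, Ints7, Ints9 and Ints11), and 2 lower, Smn1 and Strap. Among 23 genes of 7SK, SRP, RNase P and La proteins, 2 were higher and 4 lower, with Larp7, which stabilises 7SK, at 157, 296 and 248 counts against 743. Of 19 exosome genes, Exosc5 and Mtrex were lower. Of 28 tested snoRNA host genes in a list of known hosts, 1 was higher, Hspa9, and 6 were lower, among them Ncl, with 4355, 8234 and 6921 counts against 17416, and Gnl3, with 229, 302 and 333 against 749.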

How the data were processed

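RNA-seq of rat ESCs was analysed from raw counts per gene that the authors deposited, with FPKM values that the authors made from the same counts. Per the labels, poly(A) RNA was fragmented and copied with a NEBNext kit. The submitters' processing notes name HISAT2 2.0.5 and featureCounts 1.5.0-p3. The genome build and the strand setting are not given in the sources used here, and coordinates are those of the deposited table. The members and gene lists were chosen with earlier results of these data known, and the runs of members and positions in hosts were examined after the fold changes were seen.

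Counts were normalised by TMM and tested in edgeR 4.0.16 (R 4.3.3) with glmQLFit and glmQLFTest after filterByExpr with a minimum count of 10, over all 15028 rows, with Benjamini-Hochberg adjustment. SEs are the fold change divided by the root of F. The p-values measure the spread between the 3 subclones, each from 1 library; no library repeats a clone or the control. A control at 0 was set to a floor of 3 counts for lower bounds, and ratios to 1 to 3 counts have exact conditional 95% intervals, for counting error only. Alternatives were other scalings, DESeq2 1.42.0, other filters, limma 3.58.1 on log2 FPKM with a pseudocount of 1 or 0.1, and leaving out subclones. Named members were those called with the 10 smallest p in each direction and the 11th of each, added after its values were seen, the 5 with most counts per biotype, the small RNAs of the lists, hosts and members at the selection limit. Unnamed rows take the mouse symbol of their description. Small Python steps used Python 3.11.15, pandas 2.3.3, scipy 1.17.1 and matplotlib 3.10.9.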

Additional observations from a re-analysis of the deposited data

How the results depend on the processing

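The 11 members called higher and 11 called lower were the same under DESeq2's size factors, upper quartile scaling and library size alone. DESeq2's Wald test called 25 members, 22 of them shared, or 19.8% of tested members against 20.6% of all rows. The number called higher became 3 with at least 10 counts in every library, 36 and 39 with limma on log2(FPKM + 1) and log2(FPKM + 0.1), 5 over members with at least 100 counts and 7 over members with no overlap. The number called lower became 21 with limma on log2(FPKM + 1) and 6 over members with no overlap. Leaving out 1 subclone gave 0 to 24 higher and 5 to 23 lower, lowest without #3 and highest without #2. The median log2 fold change of tested members was 0.15 with upper quartile scaling, 0.32 with library size, -0.29 with at least 10 counts in every library, 0.09 with either limma pseudocount (0.086 and 0.090), -0.050 over members with no overlap, and 0.19 to 0.36 with 1 subclone left out. The ratio of shares, 1.51 in control over Thop1-KO GFP, was 1.22 over members with no overlap, 1.35 without the 3 members with most counts, 1.46 over all rows with a count and 1.49 to 1.54 with 1 subclone left out, a setting added after seeing the data. AC141169.4, which was not called, changed from a log2 fold change of 0.09 to -0.0054 with upper quartile scaling, to -0.035 and -0.072 with limma, and to between -0.45 (without #3) and 0.42 with 1 subclone left out. Beyond the smaller sets of rows or samples tested, the causes of these changes were not tested.

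Of the 22 calls, 17 were lost in at least 1 setting, always including the one without #3, where their log2 fold changes kept their direction and moved by at most 0.39. No paired analysis was possible because the control has 1 library and the groups share fewer than 2 replicate numbers. Most members had under 100 counts in all, which limits precision, and a member that missed the threshold is not shown to be equal in both groups.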

Other observations

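Rows of the 6 biotypes below the selection limit numbered 559 with 1 to 19 counts, 2742 counts in all. In 399 of them the control had 0 counts and in 51 all 3 subclones had 0. At such low counts 1 library is at 0 far more easily than 3 together, so these numbers are a description. Among let-7 miRNAs, which rise on differentiation, Mirlet7i had 0 counts in each subclone and 11 in the control, Mirlet7b had 0 and 8, and Mirlet7f1 had 0 and 1. Mirlet7d had 1, 0 and 0 counts against 2, while Mirlet7a1 and Mirlet7c2 each had 0, 2 and 0 against 0. Of the other miRNAs linked to differentiation, Mir21 had 0, 0 and 1 counts against 6 and Mir200b had 0, 1 and 0 against 0, with Mir429 at 0 in each subclone and 3 in the control. Mir92a1 and Mir19a, of a cluster active in pluripotent cells, had 0 counts in each subclone and 5 and 2 in the control. Other miRNAs of such clusters did not go this way. Mir93 had 1, 2 and 2 counts against 2, Mir106b 0, 2 and 0 against 0, and Mir363 0, 3 and 0 against 0. Mir25, a member, had 18, 14 and 8 counts against 15 and was not called (edgeR's adjusted p = 0.771). None of the 559 rows was called, and 9 were tested by edgeR. The RNase MRP row, annotated as a ribozyme and so no member, had 6, 4 and 1 counts in #1, #2 and #3 against 15 in the control, and Rpph1, the RNA of RNase P, had 6, 9 and 5 against 3.

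Variation between subclones was large for some rows, chosen after their values were seen. AC099089.1 had 204, 28 and 172 counts in #1, #2 and #3 against 22 in the control, and Nhp2, a protein of the H/ACA particle, had 86, 2435 and 2603 against 155. In each, 1 subclone lay near the control and the other 2 far above it. Neither row passed edgeR's test (adjusted p = 0.187 and 0.219).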
